A study of Mus musculus with 4 samples.

Results

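The transcripts of 10 genes of the p53 pathway were examined in splenic B cells with and without the POZ domain of the transcription factor MIZ-1. They were *Trp53*, which encodes p53, and 9 genes that p53 is known to activate, namely *Mdm2*, *Ccng1*, *Phlda3*, *Zmat3*, *Sesn1*, *Sesn2*, *Aen*, *Trp53inp1* and *Plk2*. The members were chosen by name as p53 pathway genes, with earlier results of these data known, and were 10 of the 41214 genes in the count table. RNA was sequenced from B220+ splenocytes, the spleen cells carrying the B cell form of CD45, of MIZ-1WT mice (2 libraries, genotype label WT) and MIZ-1DPOZ mice (2 libraries). The labels name no treatment of the cells. MIZ-1DPOZ mice came from crossing MB1-Cre animals with Miz-1floxPOZ animals, so that Cre, driven by the *Cd79a* (mb-1) locus, removed the POZ domain in B cells only, and all lines were on the C57BL/6 background. By that design cells of other types in the B220+ fraction of those mice keep the whole gene, which was not measured in these libraries. Whether the MIZ-1WT mice carried Cre or the floxed allele, how many mice entered a library and the age of each mouse were not given by the labels, and the methods give only an age range for the animals of the whole study.

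p53 is a transcription factor that is made all the time and destroyed all the time, because its own target MDM2 attaches ubiquitin to it. DNA damage, oncogene activity, faulty ribosome assembly and nutrient stress weaken that brake, and p53 then binds its response elements and raises genes that stop the cell cycle, repair DNA, slow growth or kill the cell. B lymphocytes cut and rearrange their own antibody genes and pass through bursts of division, and loss of p53 is a frequent event in B cell lymphoma.

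A p53 response element is a pair of decamers, each a sequence of 10 letters, with at most 13 letters between them. The consensus of the decamer reads alike on both strands, though a given match need not. The decamer consensus was looked for, with no mismatch, in the 250 bases before and 50 bases after each transcription start that RefSeq gives (GRCm38.p6). Windows were given for 8 of the 10 members, not for *Zmat3* or *Trp53inp1*. The decamer occurred in those of 5 of the 8 members (62.5%), of 11 of 51 other p53 target genes (21.6%) and of 2582 of 27025 genes in all (9.55%). A match of letters is a description and not a site shown to be bound. These stretches show the matches of the 5 members, each before a RefSeq start of its gene. The matched letters are in capitals and written along the strand of the gene. The stretches lie at chr11:69580259-69580318 (plus strand) for *Trp53*, chr10:117710910-117710969 (minus) for *Mdm2*, chr11:40755437-40755506 (minus) for *Ccng1*, chr10:41887241-41887300 (plus) for *Sesn1* and chr7:78895912-78895971 (plus) for *Aen*:
Trp53: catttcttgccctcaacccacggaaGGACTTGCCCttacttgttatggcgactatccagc
Mdm2: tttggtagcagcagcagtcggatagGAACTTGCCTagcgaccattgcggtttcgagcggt
Ccng1: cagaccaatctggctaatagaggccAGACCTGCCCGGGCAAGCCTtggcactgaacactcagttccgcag
Sesn1: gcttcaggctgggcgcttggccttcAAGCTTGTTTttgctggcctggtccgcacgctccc
Aen: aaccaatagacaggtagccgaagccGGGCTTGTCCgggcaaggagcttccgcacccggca

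The capitals began 75 bases before the start of *Trp53*, 186 before that of *Mdm2* and 195 before that of *Ccng1*. For *Sesn1* they began 173 bases and for *Aen* 121 bases before the nearest RefSeq start after the match. RefSeq gave both genes a further start. At that of *Sesn1* the window held no decamer, and the printed stretch lies inside the annotated gene (41809935 to 41908424). The *Aen* decamer began 10 bases after the other start of *Aen*. In *Ccng1* the capitals are a pair of adjacent decamers with 1 letter off the consensus. A pair with at most 1 letter off and at most 13 letters between its decamers was held by 194 of the 27025 genes (0.718%). That looser pattern was added after the sequences had been seen, and adjacent pairs were not counted apart. The gene of the p21 cell cycle inhibitor, *Cdkn1a*, is shown for comparison, since its promoter is the standard example of p53 binding. It held an exact pair 12 letters apart, and the second decamer ran into a further one with 1 mismatch. An exact pair with at most 13 letters between its decamers was held by 20 genes in all (0.0740%). The stretch lies at chr17:29090881-29090972 on the plus strand. RefSeq gave *Cdkn1a* a further start too, and the window there (chr17:29093519-29093818) held no decamer.
Cdkn1a: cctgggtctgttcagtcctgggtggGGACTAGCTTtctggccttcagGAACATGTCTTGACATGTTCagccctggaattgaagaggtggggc

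*Sesn2* and *Plk2*, the members whose transcripts differed most between the genotypes, held no decamer in their windows. Their 250 bases upstream are shown because the results turn on these genes; they lie at chr4:132510457-132510706 on the minus strand and chr13:110394794-110395043 on the plus strand. That the letters were not found in these windows says nothing of p53 elsewhere at the genes.
Sesn2: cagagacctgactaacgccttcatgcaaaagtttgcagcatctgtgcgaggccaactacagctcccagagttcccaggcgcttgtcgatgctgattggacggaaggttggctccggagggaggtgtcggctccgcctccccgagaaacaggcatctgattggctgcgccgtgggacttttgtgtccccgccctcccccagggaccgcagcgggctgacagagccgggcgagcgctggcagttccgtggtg
Plk2: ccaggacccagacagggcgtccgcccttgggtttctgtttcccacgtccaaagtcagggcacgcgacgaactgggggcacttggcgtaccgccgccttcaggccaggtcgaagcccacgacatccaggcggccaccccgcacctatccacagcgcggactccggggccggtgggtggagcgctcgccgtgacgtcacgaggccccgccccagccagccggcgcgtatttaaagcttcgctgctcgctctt

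The 4 libraries held between 43026814 and 46387209 counts on genes. Alignments that the counting assigned to no gene feature made up 27.2 and 25.5% in MIZ-1WT and 21.6 and 21.1% in MIZ-1DPOZ. With alignments to several places left out, these shares were 47.5 and 45.1% in MIZ-1WT and 38.4 and 37.8% in MIZ-1DPOZ. Pan-B cell markers were high in all 4 libraries (summed level 8265 to 10375 CPM, counts scaled to the library size), and 8 of 10 were lower in MIZ-1DPOZ (median log2 fold change −0.35). Macrophage markers stood at 993 and 1324 CPM in MIZ-1WT and at 5914 and 3709 CPM in MIZ-1DPOZ, none of the 20 was at 0 in any library, and 20 of 20 were higher in MIZ-1DPOZ (median 1.98). Markers of marginal zone B cells were higher for 6 of 6 (median 0.66) and of plasma cells for 6 of 7 (median 0.73), while 3 of 5 follicular B cell markers were lower (median −0.51). Of T cell markers 1 of 12 was called (*Cd4*, higher), of neutrophil markers 1 of the 5 tested (*Ltf*, higher; median of the 5 1.73, with 3 at an unadjusted p under 0.05), and of erythroid markers 0 of 8 by edgeR, by DESeq2 or at an unadjusted p under 0.05. In bulk RNA fewer cells of a type and less RNA per cell cannot be told apart. *Xist* had 49 and 60 counts in MIZ-1WT and 38145 and 40838 counts in MIZ-1DPOZ, with 4 of 4 Y-linked genes lower in MIZ-1DPOZ, so that sex and genotype cannot be told apart. *Zbtb17*, the gene of MIZ-1, had 47.8 and 46.3 CPM in MIZ-1WT and 37.3 and 38.0 CPM in MIZ-1DPOZ (edgeR adjusted p = 0.00857, and 0.0666 without MIZ-1WT replicate 1); counts per gene cannot show whether the POZ exons were lost.

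The question for the p53 genes was whether their transcript levels differed between the genotypes. In the edgeR quasi-likelihood fit over 14554 genes, 40.0% of all genes passed an adjusted p of 0.05, with 21.1% higher and 18.9% lower in MIZ-1DPOZ. All 10 members reached the 10 counts in 2 libraries needed for the test, and 3 of the 10 passed. *Sesn2* and *Trp53inp1* rose and *Plk2* fell, a share of 30% against those 40.0%. On the log2 scale the median difference of MIZ-1DPOZ from MIZ-1WT was 0.07 over the members and −0.0064 over all genes tested. *Trp53* itself and its main antagonist *Mdm2* did not pass. The libraries of the genotypes did not overlap for 8 of the 10 members, 5 of them higher and 3 lower in MIZ-1DPOZ, and the same held for 74.8% of all genes tested, with 37.2% higher and 37.6% lower. At a log2 difference of 0.6 or more, up or down, with an unadjusted p under 0.05, *Sesn2* and *Plk2* passed among the members and 20.3% among all genes. These limits are a reading of those in the study's methods, which print a bare p value as the limit and elsewhere name Benjamini-Hochberg correction.

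**Figure D1:**
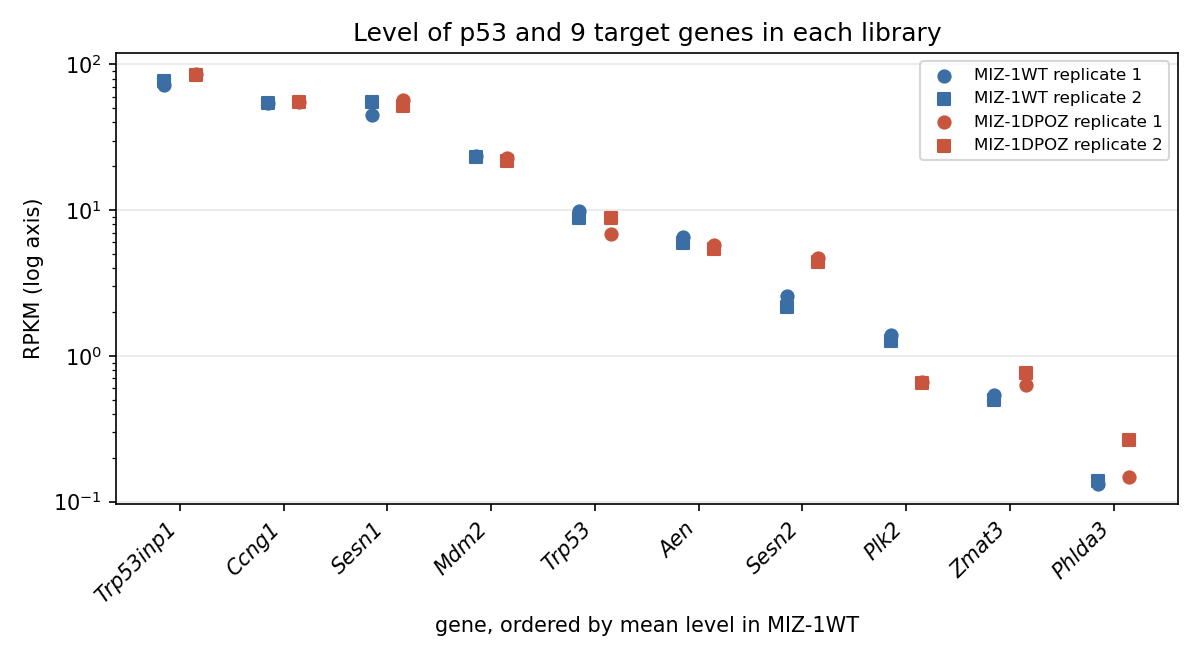
Level of each of the 10 members in each of the 4 libraries, in RPKM (reads per kilobase of exon, scaled to the library size) on a log axis; blue points are MIZ-1WT and red points MIZ-1DPOZ libraries, circles replicate 1 and squares replicate 2. *Sesn2* lies higher and *Plk2* lower in MIZ-1DPOZ, with both replicates of a genotype close together, and the members run from *Trp53inp1* (74.6 RPKM in MIZ-1WT) down to *Phlda3* (0.135 RPKM).

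Per length of exon, *Trp53inp1* was the highest member in MIZ-1WT with 74.6 RPKM. *Ccng1* (54.5 RPKM) and *Sesn1* (50.0 RPKM) came next and overlapped between libraries. *Mdm2* followed at 23.5, *Trp53* at 9.32, *Aen* at 6.27, *Sesn2* at 2.37, *Plk2* at 1.33, *Zmat3* at 0.520 and *Phlda3* at 0.135 RPKM, each apart from its neighbour in both libraries. The order was the same in MIZ-1DPOZ but for *Zmat3* (0.694 RPKM) and *Plk2* (0.659 RPKM), which changed places and overlapped there. *Ccng1* and *Sesn1* overlapped in MIZ-1DPOZ as well.

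*Trp53*, on chromosome 11 (GRCm38, 69580359 to 69591873), had 39.8 and 35.6 CPM in MIZ-1WT and 27.9 and 35.8 CPM in MIZ-1DPOZ. MIZ-1DPOZ replicate 1 was the lowest library, and the other 3 lay close together, so that the genotypes overlapped. The log2 fold change was −0.25 (SE 0.13; edgeR adjusted p = 0.182), with a 95% interval from −0.57 to 0.07. The call depended on a single library, since without MIZ-1DPOZ replicate 2 the fold change was −0.42 (adjusted p = 0.0148) and without replicate 1 it was −0.07 (adjusted p = 0.629).

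*Mdm2* encodes the ubiquitin ligase that holds p53 down. It had 120.5 and 118.6 CPM in MIZ-1WT and 116 and 110.2 CPM in MIZ-1DPOZ. Both MIZ-1DPOZ libraries lay below both MIZ-1WT libraries, but by little. The log2 fold change of −0.08 (SE 0.05; edgeR adjusted p = 0.248) had an interval from −0.20 to 0.04.

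*Ccng1* encodes cyclin G1, which works with a phosphatase to activate MDM2 and is thus a second feedback arm. Its levels were 190.4 and 192 CPM in MIZ-1WT and 193 and 194 CPM in MIZ-1DPOZ. These were the closest of all members, with a log2 fold change of 0.02 (SE 0.04; edgeR adjusted p = 0.784) and an interval from −0.09 to 0.12. It is the member whose promoter held the pair of adjacent decamers.

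The sestrins restrain the growth-promoting kinase mTORC1, which reads amino acid supply, and protect cells from oxidants. *Sesn2*, the leucine sensor among them, lies on chromosome 4 (132492032 to 132510501). It had 8.89 and 7.56 CPM in MIZ-1WT (388 and 318 counts) and 16.3 and 15.3 CPM in MIZ-1DPOZ (774 and 673 counts). Both MIZ-1DPOZ libraries were well above both MIZ-1WT libraries, and the libraries of a genotype differed by 0.23 in MIZ-1WT and 0.08 in MIZ-1DPOZ on the log2 scale. *Sesn2* rose by 0.94 on the log2 scale (SE 0.11; edgeR adjusted p = 0.00288), a fold of 1.92. The value lay between 0.83 and 1.06 under every alternative in which it was tested and stayed past the threshold in each.

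*Sesn1* was far more abundant, with 179.9 and 218 CPM in MIZ-1WT and 229 and 206 CPM in MIZ-1DPOZ. The lowest library was MIZ-1WT replicate 1, and the genotypes overlapped. The log2 fold change was 0.13 (SE 0.10; edgeR adjusted p = 0.361), and it was −0.0078 without that library (adjusted p = 0.959). The third sestrin, *Sesn3*, which stood among the other targets and is named here after its values were seen, had a log2 fold change of −0.11 (SE 0.12; edgeR adjusted p = 0.508). The difference in response between the sestrins was not tested.

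*Plk2*, a polo-like kinase that acts on centrioles and slows the cycle after damage, lies on chromosome 13 (110395046 to 110400844). It had 6.28 and 5.71 CPM in MIZ-1WT (274 and 240 counts) and 2.98 and 2.94 CPM in MIZ-1DPOZ (142 and 129 counts). The MIZ-1DPOZ libraries were nearly equal and lay far below those of MIZ-1WT. *Plk2* fell by 1.02 on the log2 scale (SE 0.14; edgeR adjusted p = 0.00464), to 0.494 of its MIZ-1WT level. Under the alternatives it lay between −1.09 and −0.95 and kept its call in each in which it was tested.

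*Trp53inp1* encodes a stress protein that promotes autophagy and p53 phosphorylation, and lies on chromosome 4 (11156431 to 11174379). With 471 and 495 CPM in MIZ-1WT and 561 and 546 CPM in MIZ-1DPOZ it was the most abundant member. All libraries were within a narrow range, with both MIZ-1DPOZ libraries on top. It rose by 0.20 on the log2 scale (SE 0.05; edgeR adjusted p = 0.0283), a fold of 1.15. The call was lost without MIZ-1WT replicate 1 (0.16, adjusted p = 0.184) and without MIZ-1WT replicate 2 (0.23, adjusted p = 0.0846).

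*Zmat3*, a zinc finger protein that binds RNA and alters splicing, had 6.16 and 5.73 CPM in MIZ-1WT and 7.16 and 8.70 CPM in MIZ-1DPOZ. The genotypes did not overlap, and the highest library was MIZ-1DPOZ replicate 2. The log2 fold change of 0.41 (SE 0.14) missed the threshold (edgeR adjusted p = 0.0664), with an interval from 0.06 to 0.77 before adjustment. Without MIZ-1DPOZ replicate 1 it was 0.56 (adjusted p = 0.0270), while without each of the other 3 libraries in turn it lay between 0.29 and 0.47 and was not called (adjusted p between 0.180 and 0.257).

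*Aen*, a nuclease that takes part in DNA breakdown during apoptosis, had 38.2 and 34.6 CPM in MIZ-1WT and 33.6 and 31.3 CPM in MIZ-1DPOZ. MIZ-1DPOZ was the lower genotype, but the gap between the nearest libraries was smaller than that within either genotype. The log2 fold change was −0.16 (SE 0.08; edgeR adjusted p = 0.142).

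*Phlda3* competes with the kinase AKT for membrane lipids. It was close to the limit of detection, with 9 and 9 counts in MIZ-1WT and 11 and 18 counts in MIZ-1DPOZ. The ratio of MIZ-1DPOZ to MIZ-1WT was 1.51, with a 95% counting interval from 0.810 to 2.88, so that no difference was detectable at this depth (edgeR adjusted p = 0.350).

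**Figure D2:**
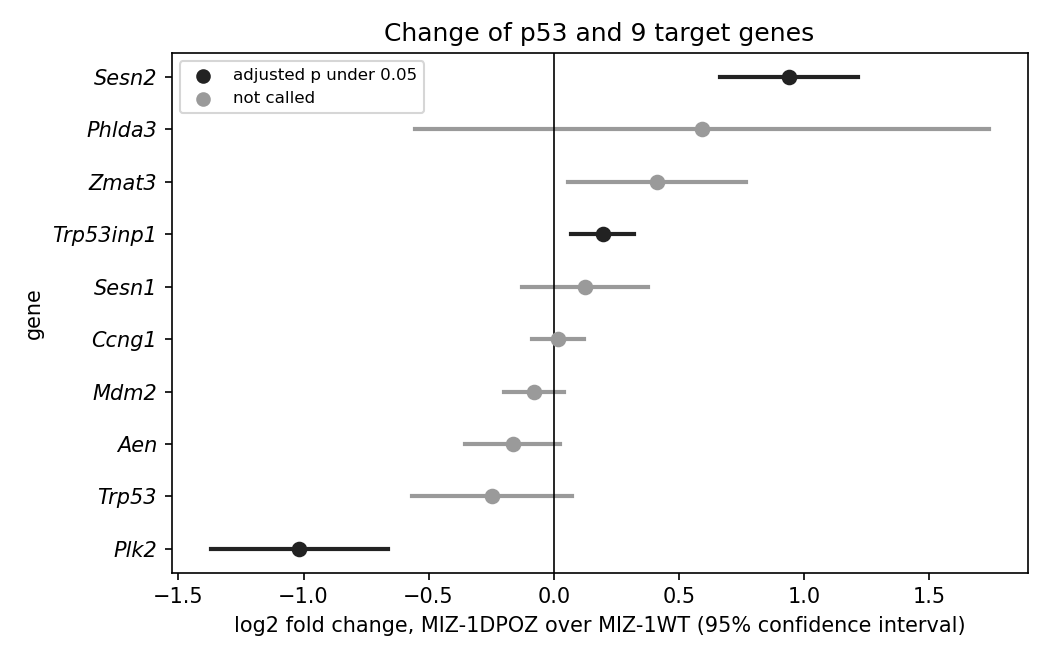
log2 fold change of MIZ-1DPOZ over MIZ-1WT for each member, with 95% intervals of the edgeR fit before adjustment; black points passed an adjusted p of 0.05 and grey points did not. The intervals of *Sesn2* (0.94) and *Plk2* (−1.02) lie furthest from 0, *Trp53inp1* (0.20) is the remaining call, and that of *Phlda3* is the widest.

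The levels of these genes can be set beside the macrophage markers, which differed between the libraries of a genotype by a median of −0.39 (MIZ-1WT) and 0.64 (MIZ-1DPOZ) on the log2 scale, replicate 1 minus replicate 2. *Sesn2* differed by 0.23 and 0.08, *Plk2* by 0.14 and 0.02 and *Trp53inp1* by −0.07 and 0.04 between the same libraries. *Trp53* differed by 0.16 and −0.36 and *Zmat3* by 0.10 and −0.28. *Sesn1* differed by −0.28 and 0.15, with the same signs as the macrophage markers. The values were 0.02 and 0.08 for *Mdm2*, −0.01 and −0.01 for *Ccng1*, 0.14 and 0.10 for *Aen* and −0.04 and −0.72 for *Phlda3*. Between the same libraries the medians were −0.13 and 0.03 for plasma cell markers and 0.10 and −0.10 for marginal zone markers. For follicular markers they were −0.06 and −0.15. The part of other cell types in the member levels was not tested. No member shares exon bases with another annotated gene.

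Beyond the members, 61 other genes that p53 is known to activate were listed by role. Of these, 55 passed the filter on low counts and 32 were called (58.2%, against 40.0% of all genes tested), 17 higher and 15 lower in MIZ-1DPOZ, with a median log2 fold change of 0.04. Calls ran in both directions, and the part in them of the macrophage, plasma cell and marginal zone markers that were higher in MIZ-1DPOZ was not tested. The number fell to 16 without MIZ-1WT replicate 1 and likewise to 16 without MIZ-1WT replicate 2, with 12 higher and 4 lower each time, and 12 genes (21.8%, against 20.3% of all genes) met the limits on fold change and unadjusted p.

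**Figure D3:**
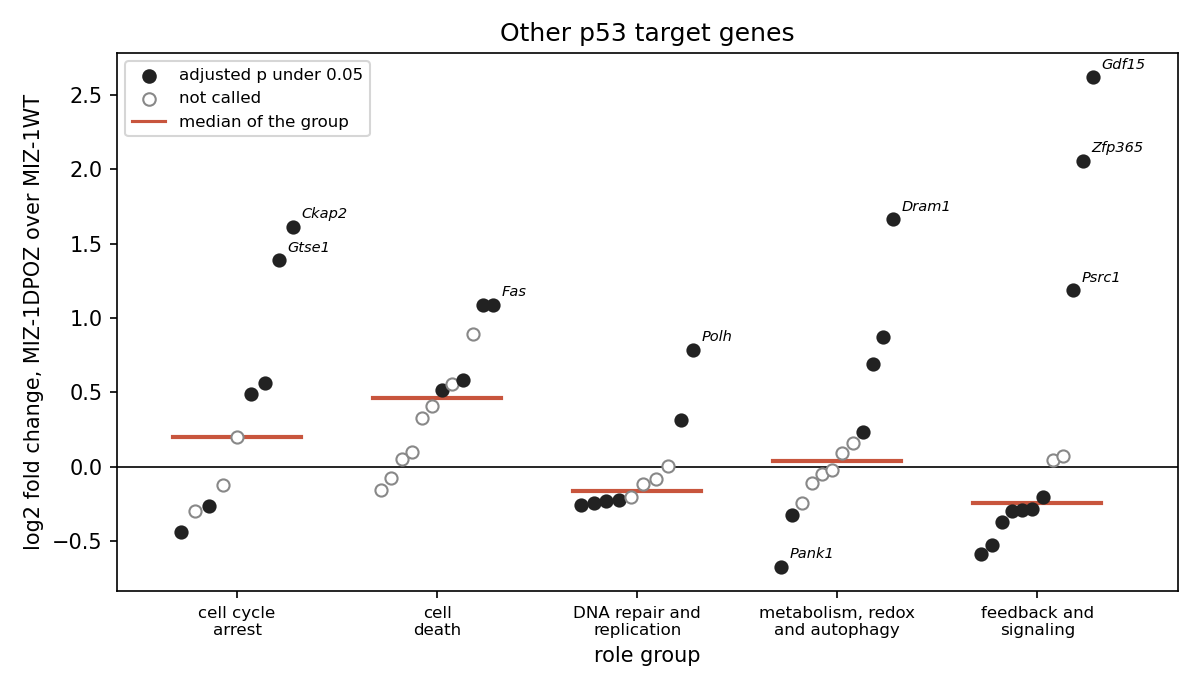
log2 fold change of MIZ-1DPOZ over MIZ-1WT for the 55 other p53 targets tested, by role; filled points passed an adjusted p of 0.05 and the bar is the median of the group. The cell death group has the highest median (0.46) and the feedback group the lowest (−0.25).

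Among the arrest genes, 4 of 9 rose and 2 fell (median 0.20), or 66.7% called against 40.0% of all genes tested. *Cdkn1a*, the gene of p21, was barely detected, with 6 and 11 counts in MIZ-1WT and 16 and 5 counts in MIZ-1DPOZ. The genotypes overlapped, and the ratio of 1.16 had a counting interval from 0.581 to 2.33 (edgeR adjusted p = 0.833). The genes that rose most were *Ckap2*, from 4.66 ± 0.373 to 14.3 ± 1.84 CPM (SD, n = 2), and *Gtse1*, from 3.35 ± 0.0605 to 8.77 ± 0.425 CPM (log2 fold changes 1.61 and 1.39; edgeR adjusted p = 0.00138 and 0.00163). Both encode microtubule proteins that cells make while they divide, and GTSE1 counteracts p53. *Plk3*, a relative of *Plk2*, rose by 0.49 on the log2 scale (edgeR adjusted p = 0.0316; not called without MIZ-1WT replicate 1, 0.169, without replicate 2, 0.111, or without MIZ-1DPOZ replicate 1, 0.0929). The antiproliferative *Btg2* (−0.26) and the checkpoint adaptor *Sfn* (−0.44) fell, and *Btg2* lost its call without MIZ-1WT replicate 1 (adjusted p = 0.0624) or 2 (0.0572), *Sfn* without MIZ-1WT replicate 2 (0.0556).

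Of the 12 cell death genes tested, 4 rose and the other 8 were not called (median 0.46), a share of calls below the 40.0% of all genes tested. *Fas*, the death receptor, had 7.27 and 8.16 CPM in MIZ-1WT and 17.6 and 15.2 CPM in MIZ-1DPOZ, and rose by 1.09 on the log2 scale (SE 0.12; edgeR adjusted p = 0.00232). *Bbc3*, the gene of the BCL-2 antagonist PUMA, had 2.25 and 2.12 CPM in MIZ-1WT and 4.999 and 4.26 CPM in MIZ-1DPOZ, a rise of 1.09 (SE 0.17; edgeR adjusted p = 0.00627). *Pmaip1* (NOXA, 0.58) and *Bid* (0.51), which act on the mitochondrial death pathway too, rose (edgeR adjusted p = 0.00664 and 0.00206). In each of these the MIZ-1DPOZ libraries lay above those of MIZ-1WT, as they did in 37.2% of all genes tested. *Bax*, the pore-forming effector, overlapped between genotypes at 43.1 and 46.5 against 47.2 and 45.5 CPM (log2 fold change 0.05; edgeR adjusted p = 0.574).

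Of the 10 DNA repair genes, 2 rose and 4 fell (median −0.16), or 60.0% called against 40.0% of all genes tested. *Polh*, the polymerase that copies past ultraviolet lesions and takes part in antibody hypermutation, went from 39.9 ± 3.51 to 68.9 ± 9.05 CPM (SD, n = 2; log2 fold change 0.79; edgeR adjusted p = 0.00435). *Pcna*, the sliding clamp of DNA replication, rose by 0.31 (edgeR adjusted p = 0.0174, but 0.0974 and 0.102 without MIZ-1WT replicate 1 and 2). The falls were small, at −0.26 for *Polk*, −0.24 for *Ercc5* and −0.22 for *Rrm2b*, and all 3 lost their calls without either MIZ-1WT library (adjusted p between 0.0868 and 0.134), *Ercc5* also without either MIZ-1DPOZ library and when only genes with a mean of at least 30 RPM (reads scaled to the library size) were kept (0.0508), and *Polk* without MIZ-1DPOZ replicate 2 (0.0779) and in DESeq2 (0.0571).

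In the group of metabolism, redox and autophagy 4 of 12 rose and 2 fell (median 0.03), or 50.0% called against 40.0% of all genes tested. *Dram1*, which acts on lysosomes in autophagy, rose by 1.66 on the log2 scale (edgeR adjusted p = 0.00524), from 1.56 and 2.05 CPM to 6.68 and 4.72 CPM. Its libraries differed within MIZ-1WT by −0.38 and within MIZ-1DPOZ by 0.50, close to the macrophage markers at −0.39 and 0.64, and their part in its rise was not tested. *Dcxr*, a carbonyl reductase, rose by 0.87 and *Ddit4*, which like the sestrins restrains mTORC1, by 0.69 (edgeR adjusted p = 0.00359 and 0.0151). *Pank1*, of coenzyme A synthesis, fell by 0.67 and *Ephx1*, an epoxide hydrolase, by 0.33 (edgeR adjusted p = 0.0206 and 0.00539), and these lost their calls without MIZ-1WT replicate 1 (0.0953) and replicate 2 (0.0523), respectively.

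The group of feedback and signaling genes held the most calls, with 3 of 12 rising and 7 falling (median −0.25). That was 83.3% called, against 40.0% of all genes tested. *Mdm4*, the partner of MDM2 that masks the activating part of p53, had 435 and 417 CPM in MIZ-1WT and 319.8 and 339.5 CPM in MIZ-1DPOZ. It fell by 0.37 on the log2 scale (SE 0.05; edgeR adjusted p = 0.00484). The ubiquitin ligases *Rchy1* (−0.59; edgeR adjusted p = 0.00554) and *Cop1* (−0.29; 0.00729) and the phosphatase *Ppm1d* (−0.30; 0.0169), which also act against p53, fell too. *Cop1* and *Ppm1d* lost their calls without MIZ-1WT replicate 1 (adjusted p = 0.0541 and 0.109) and without replicate 2 (0.0654 and 0.0630), and *Ppm1d* without MIZ-1DPOZ replicate 1 (0.0598).

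Not all of the 7 genes that fell in that group are named here, and those named do not stand for the rest. The genes that rose were *Psrc1*, *Gdf15* and *Zfp365*. *Psrc1*, a spindle protein, rose by 1.18 (edgeR adjusted p = 0.00510). *Gdf15*, a secreted stress cytokine, had 4 and 5 counts in MIZ-1WT and 24 and 36 counts in MIZ-1DPOZ, a ratio of 6.24 with a counting interval from 3.08 to 14.3 (edgeR adjusted p = 0.00983, and 0.0634 without MIZ-1WT replicate 1). *Zfp365*, known for a part in genome stability, had a ratio of 4.21 with an interval from 2.51 to 7.46 (edgeR adjusted p = 0.00891, and 0.0513 without MIZ-1WT replicate 2).

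Of 39 listed regulators of p53, 37 were tested and 17 called (45.9%, near the 40.0% of all genes tested), 9 higher and 8 lower (median −0.03). Without MIZ-1WT replicate 1 the number was 9 and without replicate 2 it was 11.

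**Figure D4:**
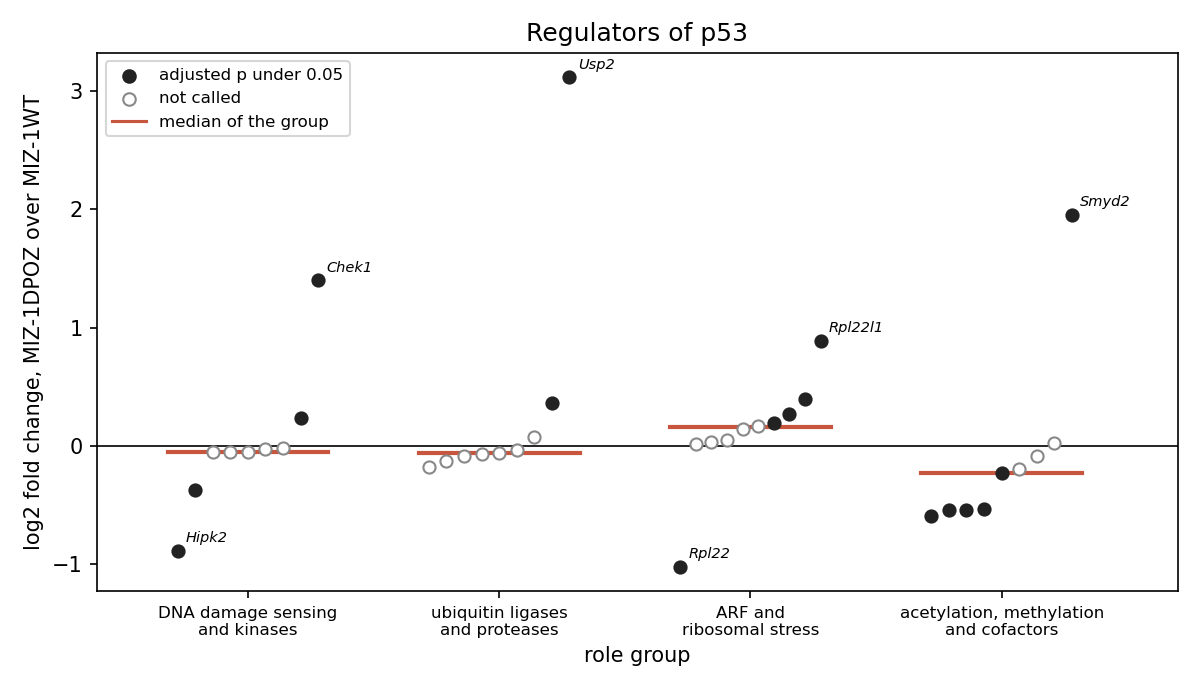
log2 fold change of MIZ-1DPOZ over MIZ-1WT for the 37 regulators of p53 tested, by role; filled points passed an adjusted p of 0.05 and the bar is the median of the group. *Rpl22* (−1.02) and *Rpl22l1* (0.89) lie at either end of their group.

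Among the genes of ribosomal stress a pair of paralogs moved in opposite directions. *Rpl22*, a ribosomal protein whose loss is known to raise p53 in developing T cells, had 548 and 573 CPM in MIZ-1WT and 277 and 276 CPM in MIZ-1DPOZ. It fell by 1.02 on the log2 scale (SE 0.05; edgeR adjusted p = 0.000732). *Rpl22l1*, its paralog, whose transcript RPL22 is known to hold down, had 115 and 119 CPM in MIZ-1WT and 221 and 214 CPM in MIZ-1DPOZ, a rise of 0.89 (SE 0.05; edgeR adjusted p = 0.000739). Ribosomal protein genes have processed copies elsewhere in the genome, and reads that aligned to several places were not counted. Of the 10 genes tested in this group 4 rose and 1 fell (median 0.16), or 50.0% called against 40.0% of all genes tested. *Npm1*, which holds ARF in the nucleolus, rose by 0.40 and *Gnl3* (nucleostemin) by 0.27 (edgeR adjusted p = 0.00373 and 0.0150, the latter 0.116 and 0.0641 without MIZ-1WT replicate 1 and 2). *Cdkn2a*, whose ARF product blocks MDM2, had 0 and 1 counts in MIZ-1WT and 12 and 5 counts in MIZ-1DPOZ and was not tested. Its ratio of 15.9 had a counting interval from 2.49 to 665.

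Of the 9 damage sensing genes 2 rose and 2 fell (median −0.05), or 44.4% called against 40.0% of all genes tested. *Chek1*, the checkpoint kinase of replicating cells, rose by 1.40 (SE 0.15; edgeR adjusted p = 0.00222), from 5.62 and 5.33 CPM to 16.3 and 12.6 CPM. *Hipk2*, a kinase that phosphorylates p53 for cell death, fell by 0.88 (SE 0.17; edgeR adjusted p = 0.0117), from 10.5 and 10.1 CPM to 4.71 and 6.47 CPM, and its adjusted p was 0.0758 and 0.0584 without MIZ-1WT replicate 1 and 2. *Nbn* (0.24), of the break-sensing complex, and *Trp53bp1* (−0.37), a break repair adaptor, were called at adjusted p = 0.0295 and 0.0178. *Nbn* lost its call without either MIZ-1WT library (0.144 and 0.118) or MIZ-1DPOZ replicate 1 (0.102), and *Trp53bp1* without MIZ-1WT replicate 1 (0.110).

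Of the 9 ubiquitin ligases and proteases 2 rose (median −0.06), or 22.2% called against 40.0% of all genes tested. *Usp2*, which removes ubiquitin from MDM2, had 2 and 2 counts in MIZ-1WT and 21 and 18 counts in MIZ-1DPOZ, a ratio of 9.13 with a counting interval from 3.29 to 35.2 (edgeR adjusted p = 0.00659). *Wwp1*, a ubiquitin ligase, rose by 0.37 (edgeR adjusted p = 0.0101, and 0.0615 and 0.0648 without MIZ-1WT replicate 1 and 2).

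Of the 9 genes for enzymes and cofactors that modify or bind p53, 5 fell and 1 rose (median −0.23). That was 66.7% called, against 40.0% of all genes tested. *Ep300*, an acetyltransferase that coactivates p53, fell by 0.59, *Sirt1*, a deacetylase that opposes it, by 0.54 and *Ppp1r13b* (ASPP1), which steers p53 to death genes, by 0.53 (edgeR adjusted p = 0.00573, 0.00155 and 0.00404). *Smyd2*, a methyltransferase that represses p53, went from 3.13 ± 0.379 to 12.1 ± 0.479 CPM (SD, n = 2; log2 fold change 1.95; edgeR adjusted p = 0.000900). An antisense gene shares 814 of its exon bases, and the strand setting of the counting was not given in the sources used here, so that reads of the pair may not be told apart. Opposite-strand genes also overlap 18.0% of the exon bases of *Rchy1*, 17.7% of *Bid*, 15.04% of *Trp53bp1*, 7.99% of *Rpl22l1* and smaller or similar shares of *Rrm2b*, *Cdkn1a*, *Usp2*, *Plk3*, *Sirt1*, *Wwp1* and *Zbtb17*.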

How the data were processed

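RNA of B220+ splenocytes was depleted of ribosomal RNA and sequenced as stranded paired-end libraries of 50 cycles per end, as a biological duplicate per genotype. The authors trimmed reads with Trimmomatic, mapped them to mm10 (GRCm38) with TopHat2 (version 2.1.0 per the submitters' processing notes; the methods name another version) and counted them per gene with HTSeq. The strand setting and annotation release were not given in the sources used here. The deposited values are raw counts per Ensembl gene, neither normalized nor pooled. The summary lines of HTSeq (no feature 21.1 to 27.2% of alignments, not unique 42.8 to 44.1%) were kept out of library sizes and tests.

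The test, edgeR 4.0.16 (TMM, quasi-likelihood, R 4.3.3), ran on every gene that reached 10 counts in 2 or more libraries, with Benjamini-Hochberg adjustment over all of them, and called at an adjusted p under 0.05. The fits were also run on simulated counts, with far fewer genes changed than were called here and the same relative spread for every gene. Those settings differ from these data, so that run does not measure the error of the calls given here. CPM used TMM library sizes; symbols, exon lengths for RPKM and positions came from GENCODE (GRCm38). Ratios of genes with few counts carry exact 95% binomial counting intervals, which cover counting error only. Promoter windows came from RefSeq tables (GRCm38.p6).

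All members were named, with *Zbtb17*, *Cdkn1a*, *Bbc3*, *Pmaip1*, *Bax*, *Fas*, *Mdm4*, *Ppm1d*, *Cdkn2a*, *Rpl22*, *Wrap53*, *Trp63* and *Trp73*, and in each role group up to 3 called genes per direction with the smallest p. Members and lists were chosen with earlier results of these data known. Alternatives were the size factors and the Wald test of DESeq2 1.42.0, no filter, a mean of at least 30 RPM (reads scaled to the library size), a replicate block, each library left out and limits of 0.6 on the log2 fold change and 0.05 on the unadjusted p, as the study's methods were read.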

Additional observations from a re-analysis of the deposited data

How the results depend on the processing

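Over all genes 5822 were called. The numbers were 2746 of 6052 with a mean of at least 30 RPM, 2960 at the limits on fold change and unadjusted p, and 2222 to 5580 with 1 library left out (2222 without MIZ-1WT replicate 1, 2843 without MIZ-1WT replicate 2). The members called numbered 1 of 6 with at least 30 RPM, a filter that removes *Sesn2* and *Plk2*, and 2 to 4 with 1 library left out. Of the other targets, 13 of 28 were called with at least 30 RPM, 12 at those limits and 16 to 31 with 1 library left out. Of the regulators, 6 were called at those limits and 9 to 18 with 1 library left out. Log2 fold changes changed sign without MIZ-1WT replicate 1 for 4 genes, none of them called: with 1 library left out *Sesn1* ranged from −0.0078 to 0.27, *Bax* from −0.0061 to 0.10, *Cdkn1a* from −0.20 to 0.77 and *Wrap53* from −0.058 to 0.10. The cause was not tested.

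The labels do not say whether libraries with the same replicate number were paired. Over genes the replicate differences correlated at −0.07 between genotypes. With 2 libraries per genotype that value cannot decide whether they were paired. With a replicate block 4732 genes, 2 members, 24 other targets and 14 regulators were called, and *Trp53inp1* (0.20, edgeR adjusted p = 0.0611), *Ercc5*, *Nbn*, *Plk3* and *Polk* were among those not called. DESeq2 called 5066 genes, 3 members, 28 other targets and 18 regulators. Another scaling moved the median of all genes by at most 0.003.

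With 2 libraries per genotype, intervals of members were wide where counts were few (*Phlda3*). A fold change fitted where MIZ-1WT held fewer than 10 counts depends on the prior count. *Phlda3*, *Gdf15*, *Usp2* and *Trp73* could not be fitted without either MIZ-1DPOZ library, nor *Cdkn1a* without MIZ-1WT replicate 2 or MIZ-1DPOZ replicate 1, because of the filter.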

Other observations

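The relatives and the neighbour of p53 gave the following values. *Trp73*, the gene of the p53 relative p73, had 1 and 1 counts in MIZ-1WT and 99 and 29 counts in MIZ-1DPOZ. *Trp73os*, an antisense gene, overlaps 5.06% of its exon bases. The ratio was 59.9 with a 95% counting interval from 16.3 to 500.1 (edgeR adjusted p = 0.00797), and the adjusted p was 0.0596 and 0.0515 without MIZ-1WT replicate 1 and 2. The MIZ-1DPOZ libraries differed by 1.59 on the log2 scale, against a median of 0.64 for the macrophage markers, and the part of other cell types was not tested. *Trp63*, the other relative, had 0 and 1 counts in MIZ-1WT and 0 and 0 in MIZ-1DPOZ and was not tested. *Wrap53*, which lies next to *Trp53* on the other strand and encodes a telomerase cofactor, had a log2 fold change of 0.02 (edgeR adjusted p = 0.865).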
